A study of Mus musculus with 2 samples.

Results

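Guidance cues are secreted proteins that attract or repel cells and their processes. The 10 genes described here encode 5 semaphorins of class 3 (Sema3a, Sema3c, Sema3d, Sema3e and Sema3f), the Slit ligands Slit2 and Slit3, the Slit receptor Robo1, and the netrins Ntn1 and Ntn4. They were chosen by name, as a list, with earlier results of these data known. They were followed across the fibroblasts, the other stromal cells and the epithelium of the mouse colon. All 10 were among the 17809 genes listed for a wild-type library, and 9 were among the 15972 genes listed for a reporter library, in which Sema3e was not listed.

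Class 3 semaphorins bind neuropilins on the receiving cell, and the neuropilins pass the signal on through plexins. Slits bind Robo receptors, and netrins bind DCC, neogenin and the Unc5 family. The cues are best known for steering growing axons, and they also act on blood and lymphatic vessels and on migrating cells. In the gut wall, nerve fibres, vessels, muscle and crypt epithelium all lie within reach of stromal cells that can secrete them.

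RNA was measured in single cells of the colon in 2 libraries made with droplet kits. The wild-type library held epithelial and mesenchymal cells of C57BL/6 mice, mixed at equal parts and made with the version 3 kit. The reporter library held mesenchymal cells with GFP from the Pdgfra-H2B-eGFP strain, in which the Pdgfra locus drives a nuclear green fluorescent protein, and was made with the version 2 kit. Each pooled 3 female mice aged 8 to 12 weeks, and neither group received a treatment. Wild-type cells were sorted after staining for CD45 and EpCAM and with a viability dye, reporter cells by GFP after the viability dye alone, so stromal cells without Pdgfra are expected only in the former. With 1 library per group and no assignment of cells to mice, no difference below has a replicate, no test was possible and no p-value is given.

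The deposited values are counts of unique molecular identifiers after correction to a common depth, so the depth of a cell is not known here. The wild-type library listed 7495 cells with a median total of 8972 corrected counts and 2804 genes, of which 7394 lay within the limits stated in the methods. The reporter library listed 4409 cells with a median total of 3150 and 1381 genes, of which 4407 lay within the limits. The libraries shared 1 cell barcode. Levels are therefore compared only within a library. A level is the corrected count averaged over all cells of a class, and a share is the percentage of cells above 0 with its exact (Clopper-Pearson) 95% interval, which covers counting error only. Where no cell of a class was above 0, the limit given is that of 3 cells in the class, which is below the upper end of the exact interval.

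Cells were clustered without the 10 genes and without 53 other guidance genes, and clusters were named from separate marker lists with the ending “-like”. The fibroblasts fell into 3 named types. CBFs1-like (1137 cells) and CBFs2-like (504 cells) stand for crypt-bottom fibroblasts, which had little Pdgfra and much Cd34, and CTFs-like (817 cells) stands for crypt-top fibroblasts, with mean Pdgfra levels of 1.79, 3.50 and 8.61 and mean Cd34 levels of 5.61, 9.46 and 0.143 in that order. The other stroma comprised 947 smooth muscle-like, 118 pericyte-like, 592 blood endothelial-like, 45 lymphatic endothelial-like, 78 glia-like and 40 immune-like cells. The epithelium comprised 761 transit-amplifying-like, 640 goblet-like, 612 enterocyte-like and 86 enteroendocrine-like cells and 380 cells without a narrower name. At least 6 markers of its own list were 2-fold higher in each named wild-type cluster, and Myh11, for example, stood at 22.3 in smooth muscle-like cells and 0.145 in fibroblasts. In the reporter library 2634 cells were CBFs1-like, 852 CBFs2-like and 527 CTFs-like, and 113 immune-like and 51 epithelial-like cells were found despite the GFP gate. Of the 3 CBFs1-like clusters there, 1 was led by Sbno2 and Cxcl2 and 1 by Cxcl5 and Cxcl9, which are stress and chemokine genes, and the CTFs-like cluster was led by the contractile genes Tagln and Acta2 besides the marker genes Bmp3, F3 and Sox6.

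The genes of 4 of the 5 semaphorins lie along 5.35 Mb of chromosome 5 (GRCm38, GENCODE M21), all on the plus strand. Sema3d spans chr5:12383385-12588948 and is followed after 536 kb by Sema3a at chr5:13125414-13602565, with no protein-coding gene between them. Sema3e follows at chr5:14025276-14256689 and Sema3c at chr5:17574281-17730268. Slit2 lies farther along the same chromosome, at chr5:47983138-48307733. Sema3f is on the minus strand of chromosome 9 (chr9:107681500-107710475). Slit3 spans chr11:35121224-35708507 on the plus strand and Ntn1 chr11:68209364-68400823 on the minus strand of the same chromosome. Robo1 spans chr16:72308306-73046095 and Ntn4 chr10:93640681-93747207, both on the plus strand. As described below, the semaphorin genes of chromosome 5 were each highest in a different class. The adjacent Sema3d and Sema3a still shared lymphatic endothelial-like cells, where Sema3d was highest (1.13) and Sema3a second highest (0.644). With cells thinned to 1000 corrected counts, both were highest in that class.

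RefSeq promoter windows, which run from 250 bases before to 50 bases after an annotated start, matched 8 of the 10 genes. Windows of Sema3c, Sema3d, Slit2 and Slit3 are printed because these genes were higher in CBFs2-like than in CBFs1-like cells in both libraries, and that of Ntn4 because it was at or near 0 in CTFs-like cells in both. All are on the plus strand of GRCm38.p6, read 5′ to 3′, and capitals mark matches to a searched motif on either strand. They come from chr5:17574566-17574865 (Sema3c), chr5:12382916-12383215 (Sema3d), chr5:47982905-47983204 (Slit2), chr11:35121206-35121505 (Slit3) and chr10:93640799-93641098 (Ntn4).
Sema3c: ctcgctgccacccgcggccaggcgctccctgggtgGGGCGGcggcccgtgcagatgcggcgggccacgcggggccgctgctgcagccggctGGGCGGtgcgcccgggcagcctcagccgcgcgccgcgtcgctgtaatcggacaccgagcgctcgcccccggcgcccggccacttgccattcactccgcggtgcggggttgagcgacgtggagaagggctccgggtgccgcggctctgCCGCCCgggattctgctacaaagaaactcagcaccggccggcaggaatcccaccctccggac
Sema3d: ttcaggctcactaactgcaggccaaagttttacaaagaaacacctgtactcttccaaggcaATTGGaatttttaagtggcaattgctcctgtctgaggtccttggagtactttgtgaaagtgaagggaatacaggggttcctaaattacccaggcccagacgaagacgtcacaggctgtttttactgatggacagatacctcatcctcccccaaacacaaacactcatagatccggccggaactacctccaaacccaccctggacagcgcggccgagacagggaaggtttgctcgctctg
Slit2: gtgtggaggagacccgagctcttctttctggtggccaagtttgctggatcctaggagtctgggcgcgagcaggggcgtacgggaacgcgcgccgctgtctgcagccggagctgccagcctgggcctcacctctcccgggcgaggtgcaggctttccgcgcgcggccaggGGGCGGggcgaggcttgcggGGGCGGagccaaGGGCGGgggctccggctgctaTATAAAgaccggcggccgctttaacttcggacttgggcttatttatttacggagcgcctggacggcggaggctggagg
Slit3: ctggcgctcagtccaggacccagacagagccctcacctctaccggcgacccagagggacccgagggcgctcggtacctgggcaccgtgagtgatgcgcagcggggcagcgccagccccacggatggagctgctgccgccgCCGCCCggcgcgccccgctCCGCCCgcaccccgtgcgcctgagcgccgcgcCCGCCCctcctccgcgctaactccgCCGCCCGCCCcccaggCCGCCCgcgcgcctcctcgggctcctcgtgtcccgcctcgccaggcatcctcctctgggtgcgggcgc
Ntn4: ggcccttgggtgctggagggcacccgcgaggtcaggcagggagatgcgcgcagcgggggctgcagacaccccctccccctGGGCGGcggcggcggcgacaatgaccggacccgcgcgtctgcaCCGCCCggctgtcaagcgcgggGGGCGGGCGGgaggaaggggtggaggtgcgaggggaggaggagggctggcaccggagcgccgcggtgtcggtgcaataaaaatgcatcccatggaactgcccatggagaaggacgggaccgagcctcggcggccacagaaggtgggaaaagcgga

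The motifs searched were the GC box (GGGCGG), the TATA box (TATAAA), the CCAAT box (CCAAT), a forkhead core (TGTTTAC) and a Gli core (TGGGTGGTC), on both strands. The GC box was found 3 times each in the Sema3c and Slit2 windows, 6 times in that of Slit3 and 4 times in that of Ntn4, and a pair of matches overlapped in the Slit3 and in the Ntn4 window. It was present in 35.7% of all 32851 windows and in those of 5 of the 8 matched genes. The Sema3d window held no GC box and 1 CCAAT box, which was present in 37.4% of all windows, and Slit2 alone among the 8 had a TATA box, which was present in 13.6%. The forkhead core, in 3.65% of all windows, and the Gli core, in 0.253%, were in none of the 8. The windows of Sema3c and Slit3 held 75.7% and 78.3% G and C, that of Ntn4 72%, that of Slit2 68% and that of Sema3d 49.7%, against a median of 52.7% over all windows. Of the 4 genes that were higher in CBFs2-like cells in both libraries, Sema3c, Slit2 and Slit3 had the GC box and Sema3d did not. A match describes letters and not a bound site.

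The cues were spread over the cell types of the colon rather than shared by 1 of them. The plot of means by class gives every value for the wild-type library. Sema3c and Slit3 were highest in CBFs2-like cells, Sema3f and Robo1 in CTFs-like cells, Sema3a in smooth muscle-like cells, Sema3d and Ntn1 in lymphatic endothelial-like cells, Ntn4 in pericyte-like cells, Sema3e in glia-like cells and Slit2 in transit-amplifying-like cells.

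**Figure D1:**
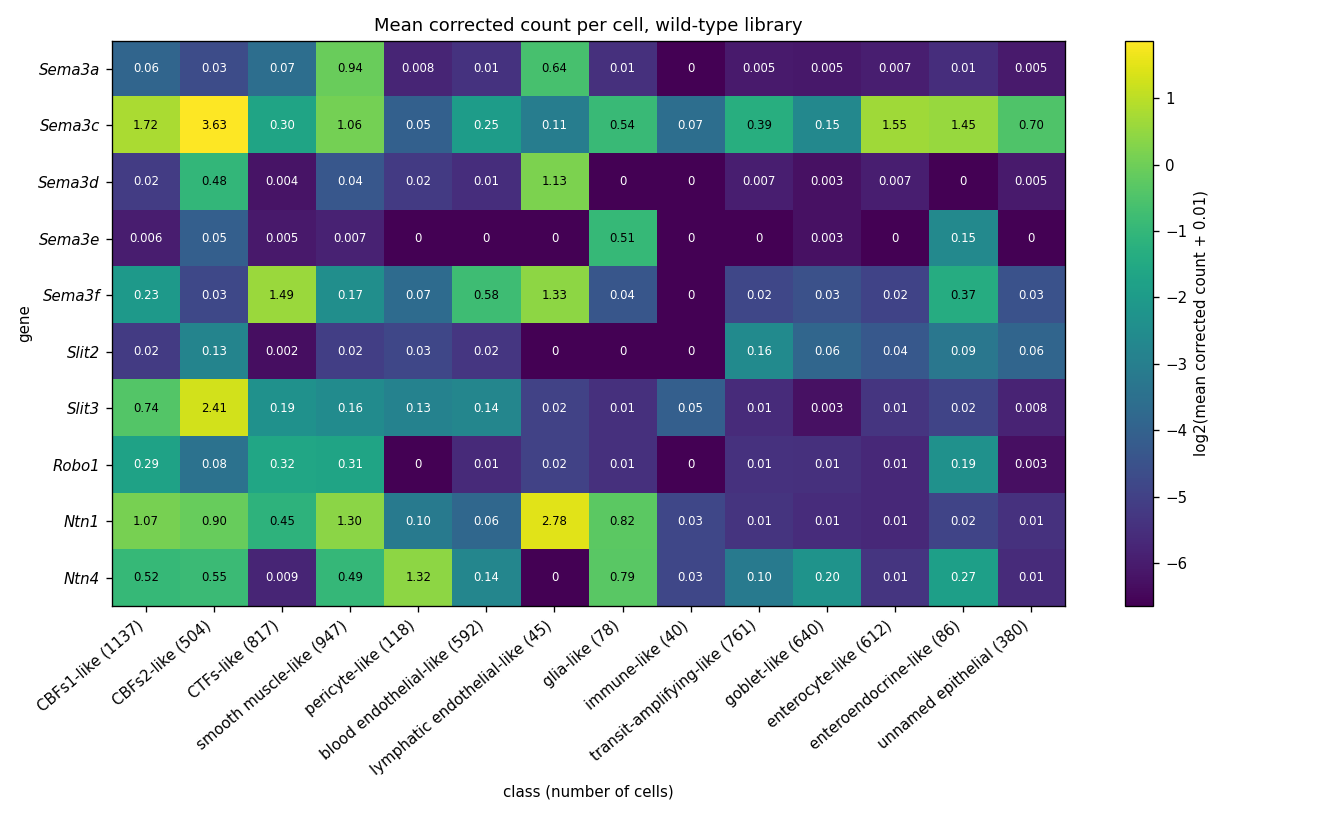
Corrected count per cell, averaged by class, of the 10 genes (rows) in 14 classes of the wild-type library (columns, with the number of cells). Colour is log2(mean + 0.01) and the number in each field is the mean itself. Sema3c reaches 3.63 in CBFs2-like cells and Ntn1 2.78 in lymphatic endothelial-like cells, while Sema3e is at 0 in 7 classes.

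Sema3c, a semaphorin known for its part in the outflow tract of the heart and in vessels, was the most widespread of the 10. Its mean fell from 3.63 in CBFs2-like cells through 1.72 (CBFs1-like) to 0.302 (CTFs-like), and it was above 0 in 80.4% (76.6% to 83.7%), 70.4% (67.6% to 73%) and 17.5% (15% to 20.3%) of them. Outside the fibroblasts it stood at 1.55 in enterocyte-like cells, followed by enteroendocrine-like (1.45) and smooth muscle-like cells (1.06). The shares of CBFs1-like and enterocyte-like cells, 70.4% and 73.9%, had overlapping intervals. It was low in pericyte-like (0.0508) and lymphatic endothelial-like cells (0.111). In the epithelium Sema3c followed the cell type, from 0.148 (goblet-like) and 0.393 (transit-amplifying-like) to 1.47 and 1.71 in the enterocyte-like clusters that had Cyp2c55 and Saa1 among their leading genes.

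Sema3f, which acts mainly through Nrp2, ran the other way among fibroblasts. It averaged 1.49 (CTFs-like), 0.233 (CBFs1-like) and 0.0258 (CBFs2-like), with shares of 56.4% (52.9% to 59.9%), 17.5% (15.3% to 19.8%) and 1.79% (0.820% to 3.36%). The 3 fibroblast types were apart from each other by their intervals. It was also found in both kinds of endothelium, at 1.33 in 45 lymphatic and 0.576 in 592 blood endothelial-like cells. The interval of the lymphatic share, 35.8% to 66.3%, overlapped that of CTFs-like cells.

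Sema3d had a narrow pattern. It averaged 0.484 in CBFs2-like cells but 0.0185 in the CBFs1-like type, and of the CTFs-like cells 2 of 817 cells were above 0. In lymphatic endothelial-like cells it averaged 1.13, with a share of 51.1% (35.8% to 66.3%). The share of CBFs2-like cells was 31.5% (27.5% to 35.8%), and the 2 intervals only just overlapped. The highest level of Sema3d in any other named class was 0.0391, in smooth muscle-like cells.

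Sema3a, a repellent of sensory and sympathetic axons, was a gene of the muscle rather than of fibroblasts. It averaged 0.941 in smooth muscle-like cells, where 51.4% of cells (48.2% to 54.7%) were above 0, and 0.644 in lymphatic endothelial-like cells. In the fibroblast types it stayed between 0.0298 and 0.0747, and their intervals overlapped. Sema3e, a semaphorin that can bind Plxnd1 without a neuropilin, averaged 0.513 in glia-like cells and was above 0 in 31 of 78 of them. It averaged 0.151 in enteroendocrine-like and 0.0496 in CBFs2-like cells. It was at 0 in all 592 blood endothelial-like cells, which allows a share of up to 0.507%, and in all 761 transit-amplifying-like cells, which allows up to 0.394%.

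The Slit ligands differed from each other. Slit3 was a fibroblast gene, with means of 2.41 (CBFs2-like), 0.737 (CBFs1-like) and 0.190 (CTFs-like), and shares of 79.6% (75.8% to 83%), 44.7% (41.8% to 47.6%) and 13% (10.7% to 15.5%). No other named class exceeded 0.161, and 132 fibroblasts without a name averaged 0.773. Slit2 was low everywhere, and its highest means were 0.159 in transit-amplifying-like and 0.133 in CBFs2-like cells. The share of transit-amplifying-like cells above 0 was 14.3% (11.9% to 17%), apart from the 8.73% (6.41% to 11.5%) of CBFs2-like cells. After each cell was thinned to 1000 corrected counts, a total that no cell fell short of, these shares were 1.31% and 1.59%, so the order of the leading pair was not kept.

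Robo1, a receptor of both Slits, was nearly level in the CTFs-like type (0.316), in smooth muscle (0.305) and in the CBFs1-like type (0.289), with shares of 23.4%, 24.4% and 23.7% and overlapping intervals. It averaged 0.0833 in CBFs2-like cells, the type in which Slit3 was highest, and 0.186 in enteroendocrine-like cells. It was at 0 in all 118 pericyte-like cells, which allows a share of up to 2.54%.

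The netrins also parted. Ntn1 averaged 2.78 in lymphatic endothelial-like cells, then 1.30 (smooth muscle-like), 1.07 (CBFs1-like), 0.905 (CBFs2-like) and 0.821 (glia-like). Each of these classes overlapped in the interval of its share with the next. CTFs-like cells followed at 0.447, apart from glia-like cells by their interval. Blood endothelial-like cells had 0.0625. Ntn4, a netrin that binds laminins of basement membranes, averaged 1.32 in pericyte-like cells, above 0 in 58.5% (49.0% to 67.5%), and 0.795 in glia-like cells. It was nearly level at 0.515 (CBFs1-like), 0.550 (CBFs2-like) and 0.494 (smooth muscle-like), with overlapping intervals. In CTFs-like cells it averaged 0.00857, with 5 of 817 cells above 0. It was at 0 in all 45 lymphatic endothelial-like cells, the class with the most Ntn1, which allows a share of up to 6.67%.

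The first comparison asked how fibroblasts at the top of the crypt differ from those at its bottom. In the wild-type library 6 of the 10 genes were lower in CTFs-like than in CBFs-like cells by at least 2-fold and 1, Sema3f, was higher. All 10 passed the filter of 20 summed corrected counts. Of 13012 genes compared in the same way, 8.47% were lower and 4.93% higher by that much, 13.4% in all. The median log2 ratio was -1.76 over the 10 genes and -0.08 over all genes. Ratios have 0.01 added to each mean, which understates the change of low genes.

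Among the cues that were lower in CTFs-like cells, Ntn4 had the ratio farthest from 0, with means of 0.00857 and 0.526 and a log2 ratio of -4.85. Sema3c stood at -2.89, Slit3 at -2.66 and Ntn1 at -1.17. Sema3d and Slit2 rested on a sum of 3 and 2 corrected counts in CTFs-like cells. Without the added 0.01, Sema3d was 44.0-fold higher in CBFs-like cells with a counting interval of 14.9 to 215, and Slit2 21.7-fold higher with 5.82 to 182. Within the CBFs-like cells these 2 genes averaged 0.484 and 0.133 in the CBFs2-like type but 0.0185 and 0.0176 in the CBFs1-like type. Sema3f was higher in CTFs-like cells at 1.49 against 0.169, a log2 ratio of 3.07. Sema3a (0.51), Robo1 (0.46) and Sema3e (-0.99) were within 2-fold.

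In the reporter library the same 6 genes were lower and Sema3f was higher, of 9 genes listed, all of which passed the filter. There 6.31% of 12305 genes were lower and 4.52% higher, 10.8% in all, and the median log2 ratio was -1.92 over the 9 genes and 0.08 over all genes. Sema3c stood at 0.0626 against 0.599 (-3.07), Slit3 at 0.0304 against 0.248 (-2.68), and Ntn1 at 0.0569 against 0.308 (-2.25). Ntn4, Sema3d and Slit2 were at 0 in all 527 CTFs-like cells, which allows a share of up to 0.569%. Against a floor of 3 corrected counts over that class, Ntn4 was at least 14-fold, Sema3d at least 4.89-fold and Slit2 at least 2.27-fold higher in CBFs-like cells. The CBFs-like mean joins unlike types. Sema3d and Slit2 averaged 0.107 and 0.0493 in CBFs2-like but 0.00228 and 0.00114 in CBFs1-like cells. Their CBFs1-like shares, 0.152% and 0.114%, lay below the 0.569% limit, so no difference of CTFs-like from CBFs1-like cells was shown for them. With Ntn4, Sema3d and Slit2 at their bounds the median over the 9 genes was -2.25.

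Sema3f stood at 0.0873 in the CTFs-like cells of the reporter library against 0.0344 in its CBFs-like cells, a log2 ratio of 1.13, and the difference from the 3.07 of the wild-type library was not tested. Its share there was 8.35% (6.13% to 11%), against 3.16% (2.6% to 3.79%) of CBFs-like cells. Of the bottom types, CBFs1-like cells averaged 0.0448, with a share of 4.10% (3.38% to 4.93%), and CBFs2-like cells 0.00235. The 2-fold call is against the pooled mean of these types, and a ratio to CBFs1-like cells alone was not computed. In the same library 51 epithelial-like cells averaged 0.0980, with a share of 9.80% (3.26% to 21.4%), and 113 immune-like cells 0.0531, with 5.31% (1.97% to 11.2%), and both intervals overlapped that of the CTFs-like cells. The part of free RNA in these levels was not tested. The highest Sema3f of that library was in 232 fibroblasts without a name, led by Agt and Saa3, at 0.254 and with a share of 21.6% (16.4% to 27.4%). Their Pdgfra, at 0.797, lay between the 1.13 of CTFs-like and the 0.327 of CBFs-like cells. Counted with the CTFs-like cells, they raised the log2 ratio of Sema3f from 1.13 to 1.74, in an alternative added after the values had been seen. At another clustering resolution, and with cells thinned, Sema3f was no longer 2-fold higher in this library, where the count was then 0 higher and 6 lower.

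**Figure D2:**
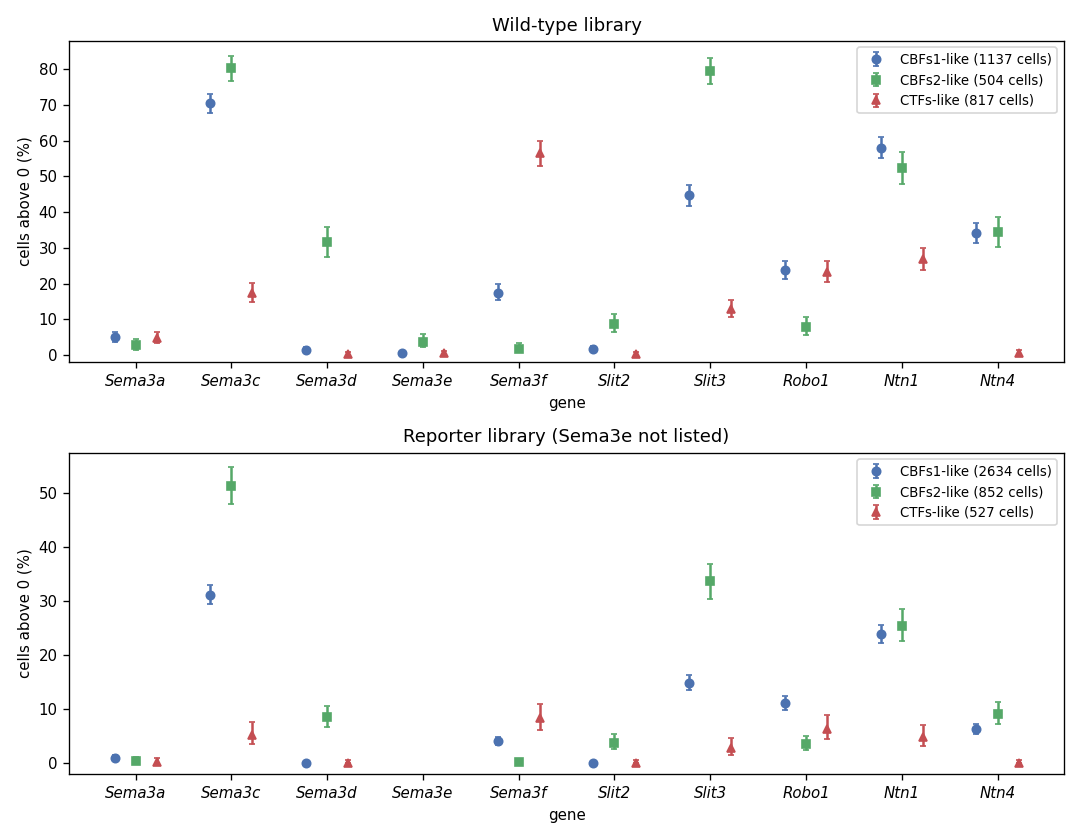
Percentage of cells above 0 for each gene in the 3 fibroblast types, for the wild-type library (upper panel) and the reporter library (lower panel, on its own scale). Points are shares and bars are exact 95% intervals that cover counting error only. Sema3f is highest in CTFs-like cells in both panels (56.4% and 8.35%), and Sema3c, Sema3d and Slit3 are highest in CBFs2-like cells.

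The second comparison asked how the bottom fibroblast types differ from each other. In the wild-type library 5 of the 10 genes were higher in CBFs2-like than in CBFs1-like cells by at least 2-fold, where 6.49% of 12372 genes were, and 2 were lower, where 4.19% were (10.7% in either direction). The median log2 ratio was 0.58 over the 10 genes and 0.07 over all genes. Sema3d was higher by 4.12 on the log2 scale, with shares of 31.5% and 1.41%. Slit2 was higher by 2.37, Sema3e by 1.88, Slit3 by 1.70 and Sema3c by 1.07. Sema3f was lower at -2.76 and Robo1 at -1.68. Sema3a (-0.78), Ntn1 (-0.24) and Ntn4 (0.09) were within 2-fold.

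In the reporter library Sema3c (1.39), Sema3d (3.25), Slit2 (2.41) and Slit3 (1.53) were higher in CBFs2-like cells, where 3.35% of 11980 genes were, and Sema3f (-2.15) and Robo1 (-1.29) were lower, where 5.64% were (8.99% in either direction). These were the genes called in the wild-type library except Sema3e, which was not listed. The median log2 ratio was 0.65 over the 9 genes and -0.20 over all genes. Slit3 had shares of 33.7% (30.5% to 37%) among CBFs2-like and 14.9% (13.5% to 16.3%) among CBFs1-like cells. Sema3d had shares of 8.57% (6.78% to 10.7%) and 0.152% (0.0414% to 0.388%). The Slit2 ratio rested on a sum of 3 corrected counts in 2634 CBFs1-like cells, and was 43.3-fold with a counting interval of 13.8 to 218. That of Sema3f rested on a sum of 2 in 852 CBFs2-like cells, and was 19.1-fold with an interval of 5.17 to 159.

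Stress and chemokine genes led 2 of the 3 CBFs1-like clusters of the reporter library. Sema3c averaged 0.416, 0.430 and 0.438 in the clusters led by Sbno2 and Cxcl2, by C1qtnf3, and by Cxcl5 and Cxcl9, and Ntn1 0.284, 0.279 and 0.302. Slit3 varied more, with shares of 12.6% (10.7% to 14.7%), 14.7% (12.5% to 17%) and 20.1% (16.7% to 23.8%) in the same order, of which the first and the last were apart. Ntn4 averaged 0.0537, 0.0785 and 0.0822, and Sema3a 0.00627, 0.0111 and 0.0229. With the C1qtnf3 cluster alone as CBFs1-like, an alternative added after the values had been seen, the counts of genes past 2-fold were the same in both comparisons.

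Over both comparisons and the 9 genes listed in both libraries, the sign of the ratio was shared for 7 genes at the crypt top against its bottom, where it was for 7718 of all 11518 genes, and for 8 genes between the bottom types, where it was for 7402 of 11211. The exceptions were Sema3a and Robo1 in the former and Ntn1 in the latter, all within 2-fold in both libraries.

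**Figure D3:**
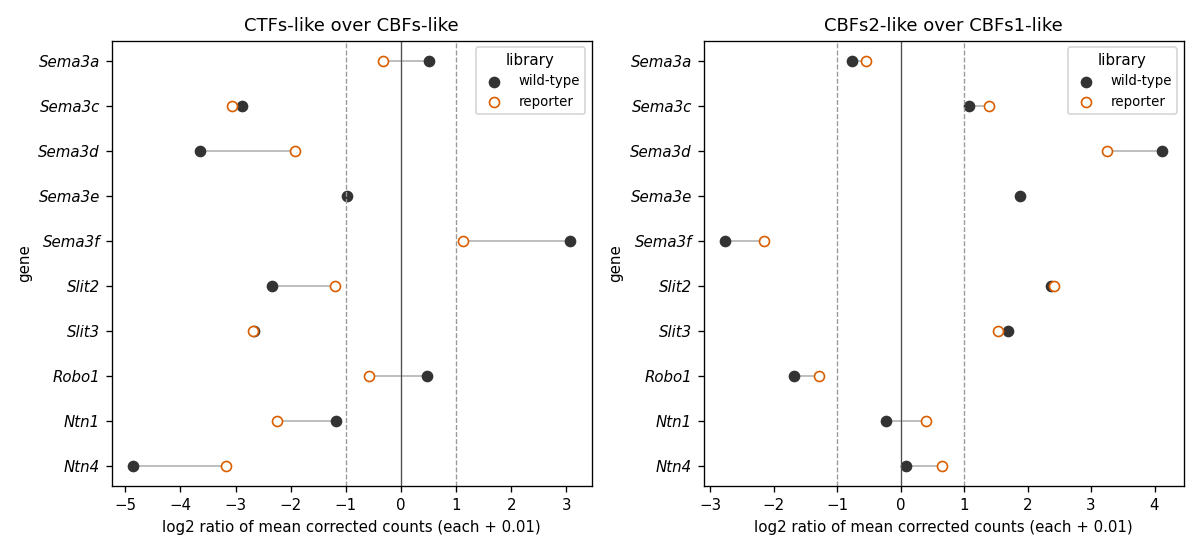
Log2 ratio of class means (each + 0.01) for crypt-top over crypt-bottom fibroblasts (left) and between the bottom types (right). Filled points are the wild-type and open points the reporter library, dashed lines mark 2-fold, and Sema3e has 1 point because it was not listed in the reporter library. Sema3c and Slit3 lie close together in both libraries (-2.89 and -3.07, and -2.66 and -2.68, on the left), while Sema3f lies at 3.07 and 1.13.

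Crypt-bottom fibroblasts of the wild-type library often held several of the 10 genes, the receptor Robo1 included, and crypt-top fibroblasts less often. In 67.1% of CBFs2-like, 49.6% of CBFs1-like and 14.3% of CTFs-like cells, 3 or more were above 0. Of the 10 genes, an average of 3.03 were above 0 in a CBFs2-like cell of the wild-type library, 2.63 in a smooth muscle-like cell, 2.57 in a CBFs1-like cell and 1.44 in a CTFs-like cell. After thinning these averages were 0.746, 0.460, 0.447 and 0.299. In the reporter library, 3 or more of 9 genes were above 0 in 14.7% of CBFs2-like, 5.43% of CBFs1-like and 0 of 527 CTFs-like cells. In epithelial classes the average ran from 0.408 (goblet-like) to 1.52 (enteroendocrine-like). Sema3c and Slit3 were both above 0 in 67.3% of CBFs2-like cells, and the product of their shares was 63.9%. In the reporter library the same pair was found together in 20.2% of CBFs2-like cells, and the product was 17.3%. Sema3a and Ntn1 were both above 0 in 36% of smooth muscle-like cells, against a product of 32.7%. Each pair was found together slightly more often than the product of its shares.

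Smooth muscle-like cells, which contract the gut wall and the muscularis mucosae, differed from the fibroblasts in fewer of these genes. Sema3a was higher, at 0.941 against 0.0578 and a log2 ratio of 3.81. It was 1 of 10 genes higher by 2-fold, where 5.28% of 13532 genes were. Slit3 (-2.41), Sema3f (-1.75) and Sema3d (-1.28) were lower, 3 of 10, where 10.2% of genes were (15.5% in either direction). The median log2 ratio was -0.56 over the 10 genes and -0.11 over all genes. Sema3c (-0.63), Robo1 (0.25), Ntn1 and Ntn4 were within 2-fold. The pooled fibroblast mean joins unlike types, so being within 2-fold of it does not mean being near each type. Ntn4, at 0.494 in smooth muscle-like cells, averaged 0.515 (CBFs1-like), 0.550 (CBFs2-like) and 0.00857 (CTFs-like). Sema3c, at 1.06 there, averaged 1.72, 3.63 and 0.302 in the same order. The 10 fibroblast markers together stood at 27.8% of their fibroblast level in smooth muscle-like cells, from 3.84% to 50.9% by marker, and Sema3a at 1629%. The part of fibroblast RNA in the levels of the other genes there was not tested. The markers stood at 17.2% in pericyte-like, 11.8% in glia-like and 4.86% in lymphatic endothelial-like cells, where Ntn4, Sema3e and Ntn1 in that order stood at 374%, 3501% and 335% of their fibroblast level.

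The third question was which cues the epithelium itself held. Fibroblasts were higher than epithelial cells by at least 2-fold in 8 of the 10 genes, where 16.7% of 15283 genes were, and lower in 1, where 33.2% were (49.9% in either direction). The median log2 ratio was 2.54 over the 10 genes and -0.47 over all genes. Slit3 (5.53) and Ntn1 (5.22) had the ratios farthest from 0. Sema3f stood at 3.63, Robo1 at 3.32, Sema3d at 2.97, Sema3a at 2.11, Ntn4 at 1.77 and Sema3c at 1.22. The pooled fibroblast mean joins unlike types here too. In CTFs-like cells Ntn4 (0.00857) and Sema3c (0.302) lay below their epithelial means of 0.0968 and 0.6999. Sema3d in CTFs-like cells (0.00367 against 0.00524) and Sema3f in CBFs2-like cells (0.0258 against 0.0399) also lay below, with overlapping intervals of their shares. Sema3a, Slit3, Robo1 and Ntn1 lay above the epithelial mean in each fibroblast type. Slit2 was lower in fibroblasts, at 0.0362 against 0.0863 (-1.06), and Sema3e (0.62) was within 2-fold. Slit2 was no longer past 2-fold when log-normalized values were clustered, when cells were thinned, when values were pooled over a class, or with 0.1 added to each mean.

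RNA from burst cells can appear in any droplet, so the level of fibroblast markers in epithelial cells is given beside these values. The 10 markers together stood at 0.968% of their fibroblast level in epithelial cells, from 0.870% to 1.56% by marker. Slit3 at 1.08% and Ntn1 at 1.51% lay within that range. Sema3d (4.81%), Robo1 (6.46%), Sema3f (6.56%) and Sema3a (9.78%) lay above it, and Ntn4 (27.4%), Sema3e (41.3%), Sema3c (42.7%) and Slit2 (238%) far above it. Sema3a and Sema3d rested on sums of 14 and 13 corrected counts in 2479 epithelial cells. They were highest outside the fibroblasts, at 0.941 (smooth muscle-like) and 1.13 (lymphatic endothelial-like). A band set by fibroblast markers does not cover free RNA from such cells, and its part was not tested. Robo1, Sema3f and Sema3e were highest, among epithelial classes, in the 86 enteroendocrine-like cells, which secrete hormones, and their means of 0.186, 0.372 and 0.151 there compare with 0.0131 or less, 0.0342 or less and 0.00313 or less in the other epithelial classes. Ntn4 was at 0.267 there, at 0.198 (goblet-like) and at 0.0147 (enterocyte-like).

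**Figure D4:**
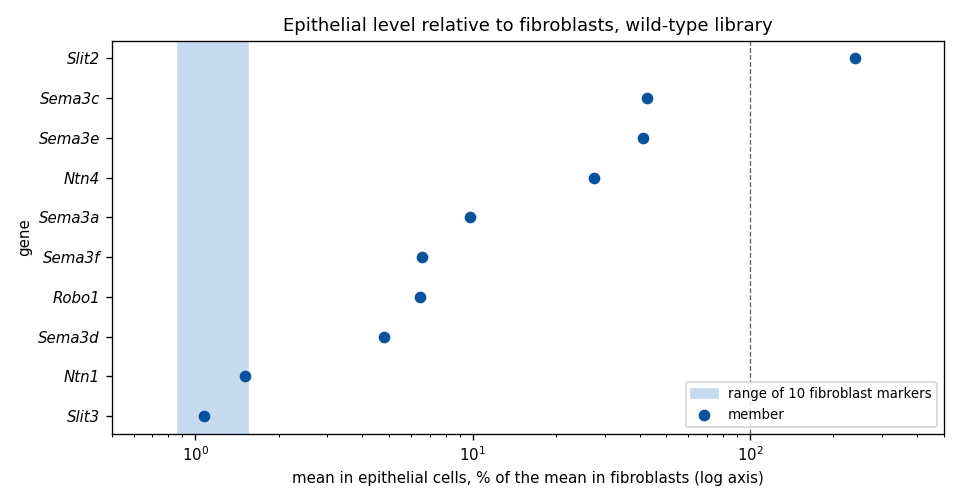
Mean in 2479 epithelial cells as a percentage of the mean in 2458 fibroblasts of the wild-type library, on a log axis. Points are the 10 genes, the shaded band is the range of 10 fibroblast markers (0.870% to 1.56%), and the dashed line marks equal levels. Slit3 and Ntn1 lie in the band, and Slit2 lies at 238%.

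The receptors show which cells could receive the cues, and their values are given from a list of 53 other guidance genes, of which 49 were listed for wild-type and 39 for reporter cells. Nrp1, a neuropilin that binds Sema3a among others, averaged 4.22 in blood endothelial-like cells, 1.99 (CBFs1-like) and 1.96 (pericyte-like), against 0.240 (CTFs-like). Nrp2, the neuropilin of Sema3f, averaged 4.17 in enteroendocrine-like cells, 3.80 (lymphatic endothelial-like) and 3.04 (CTFs-like). Both neuropilins were found in all 3 fibroblast types, at different levels. CBFs2-like cells averaged 0.835 for Nrp1 and 0.978 for Nrp2, and CBFs1-like cells 1.28 for Nrp2. Between the bottom types, Nrp1 was lower in CBFs2-like cells in both libraries (-1.24 and -2.06). Nrp1 was lower in CTFs-like than in CBFs-like cells in both libraries (-2.72 and -2.57), and Nrp2 was higher by 1.35 in wild-type cells and by 0.88, within 2-fold, in reporter cells. Sema3f and Nrp2 were both at their highest among fibroblasts in the CTFs-like cells of the wild-type library.

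Of the plexins, Plxnd1 averaged 0.775 in blood endothelial-like and 0.686 in pericyte-like cells, and Plxna2 0.622 in blood endothelial-like cells. Plxna4 was highest at 0.244 in lymphatic endothelial-like cells. Plxna1 did not exceed 0.174 and Plxna3 did not exceed 0.0641 in any class. Among the Slit receptors, Robo2 followed Robo1, with 1.17 (CBFs1-like), 0.917 (CTFs-like) and 0.719 (smooth muscle-like), and like Robo1 it was lower in CBFs2-like than in CBFs1-like cells in both libraries (-1.13 and -1.74). Robo4, the Robo of vessels, averaged 1.00 in blood and 0.311 in lymphatic endothelial-like cells. Of the netrin receptors, Neo1 averaged 1.24 in smooth muscle-like cells and 0.812 in the CTFs-like type, Unc5c 0.342 in smooth muscle, Unc5a 0.326 in enteroendocrine-like cells and Unc5b 0.395 in enterocyte-like cells. Unc5d did not exceed 0.0109, and Dcc was not among the genes listed in either library.

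**Figure D5:**
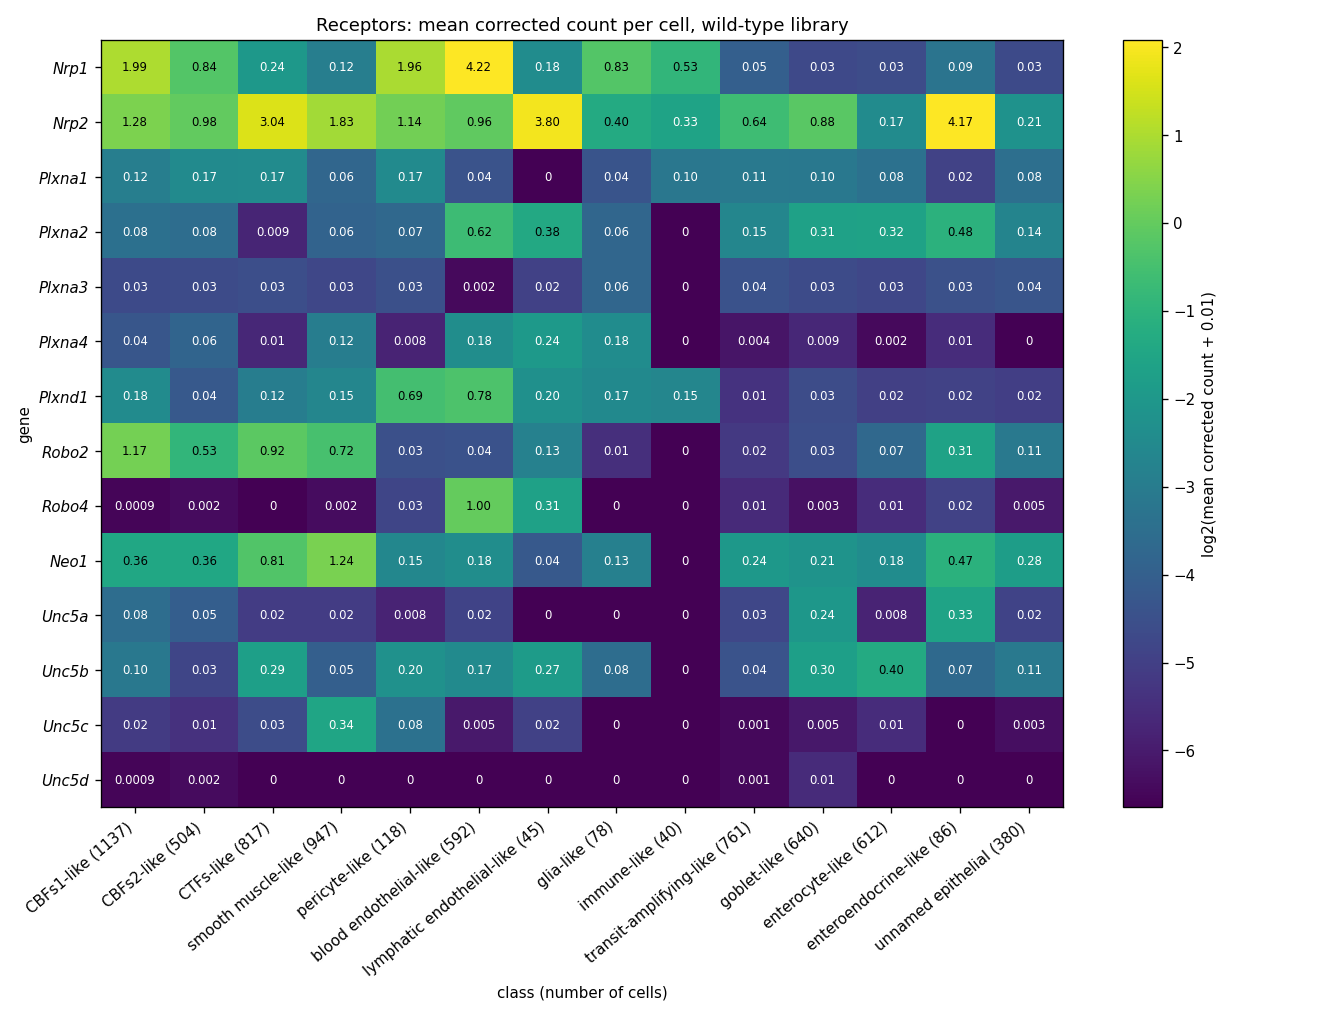
Corrected count per cell, averaged by class, of 14 receptors of the cues (rows) in 14 classes of the wild-type library (columns, with the number of cells). Colour is log2(mean + 0.01) and the number in each field is the mean. Nrp1 is highest in blood endothelial-like cells (4.22), Nrp2 in enteroendocrine-like cells (4.17) and Neo1 in smooth muscle-like cells (1.24).

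Over the whole list of other guidance genes, 37 passed the filter for crypt-top against crypt-bottom fibroblasts in the wild-type library, and 6 were higher and 11 lower by 2-fold, where 4.93% and 8.47% of all genes were, with a median log2 ratio of -0.09. The 6 were Sema4d, Sema6a, Sema7a, Nrp2, Neo1 and Unc5b. In the reporter library none of 31 was higher and 8 were lower, against 4.52% and 6.31% of all genes. Between the bottom types 4 of 35 were higher and 7 lower among wild-type cells, where 6.49% and 4.19% of all genes were, and 3 and 4 of 31 among reporter cells, where 3.35% and 5.64% were. Flrt2, Flrt3 and Rgmb, which encode membrane-bound cues, were higher in CBFs2-like cells in both. In smooth muscle-like cells 5 of 38 were higher and 12 lower than in fibroblasts, where 5.28% and 10.2% of all genes were. In fibroblasts 15 of 42 were higher and 13 lower than in epithelial cells, where 16.7% and 33.2% of all genes were, so the share of lower genes was near that of all genes.

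The patterns of the 10 genes over the 14 classes were compared with those of 14610 other genes by Pearson's correlation of log2(mean + 0.01). These correlations describe 14 points from 1 library and have no p-value. Slit3 was nearest to Lum (0.95), Ccdc80 (0.94) and Mgp (0.94), which encode matrix proteins. Sema3d was nearest to Ackr2 (0.91), Slc38a4 (0.89) and Rspo3 (0.87), the last a ligand that enhances Wnt signals, all highest in lymphatic endothelial-like cells. Sema3f was nearest to Fcho2 (0.90), Ece1 (0.88) and Pcdh12 (0.87), which were highest in endothelium. Sema3e was nearest to Gm43519 (0.98), Cnksr2 (0.98) and Gfra1 (0.96), the last a GDNF co-receptor, all highest in glia-like cells. Ntn1 was nearest to Nsg1 (0.96), Calhm2 (0.96) and Gypc (0.94), and Ntn4 to Rcan2 (0.88), Actr3b (0.87) and Ppp2r2b (0.87). Robo1 was nearest to Kcns3 (0.93), Smad9 (0.93) and 1110065P20Rik (0.90), and Sema3a to Gm43719 (0.96), Gm42676 (0.95) and Zfp811 (0.91). Slit2 was nearest to Ice2 (0.91), Auts2 (0.90) and Dgcr8 (0.89), all highest in transit-amplifying-like cells, and Sema3c to Sh3d19 (0.87), Plekha5 (0.80) and Wdtc1 (0.80).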

How the data were processed

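Single-cell RNA of 2 colon libraries was read from the deposited tables. Per the submitters’ notes and the methods, the authors used Cell Ranger to align reads to mm10 and count molecules, and Seurat 3.1 in R 3.6.2 to filter and to run SCTransform. The whole numbers as deposited were taken as a score, namely SCTransform-corrected counts, because the natural log values that the authors deposited beside them equal ln(1 + score) to within rounding. Molecule counts were not recoverable, so no count test was run, and levels are means of corrected counts.

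Cells were clustered from the natural log values as deposited in Seurat 5.3.0 (R 4.3.3) with 30 principal components and resolutions of 0.45 (wild-type) and 0.3 (reporter), as in the methods. A class needed at least 3 of its markers at 2-fold over the other cells (over the other fibroblast types for reporter fibroblasts) in at least 10% of cells. Wild-type clusters of 487, 132, 99 and 20 cells and a reporter cluster of 232 cells stayed without a name. Scrublet (scanpy 1.11.5, expected rate 0.08) called 115 cells (1.53%) and 5 cells (0.113%) doublets, which were kept, and with so low a share the calls for the reporter library were not relied on. Python 3.11.15, numpy 2.4.6, scipy 1.17.1 and matplotlib 3.10.9 were used.

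A gene was called when the ratio of class means, with 0.01 added to each, reached 2-fold, among genes with 20 summed corrected counts. The ratio was tested on simulated data, the outcome of which is not given here. The text names all 10 genes, the receptors of the list, the 8 other genes of the list with the highest class mean and the 3 nearest genes to each member. The other genes named in the counts of that list were chosen after their values were seen. The members and lists were chosen with earlier results of these data known.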

Additional observations from a re-analysis of the deposited data

Results flagged for a closer look

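The 3 results below had opposite signs in the 2 libraries, which differ in kit, genotype and sort, and the difference was not tested. Each is a log2 ratio of class means within 2-fold. For CTFs-like over CBFs-like cells, Sema3a stood at 0.51 (wild-type) and -0.33 (reporter), the latter resting on a sum of 3 corrected counts in CTFs-like cells. Robo1 stood at 0.46 and -0.58 in the same comparison. For CBFs2-like over CBFs1-like cells, Ntn1 stood at -0.24 (wild-type) and 0.39 (reporter).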

How the results depend on the processing

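No paired analysis was possible because each group is 1 library of pooled mice. Counts of genes past 2-fold were recomputed under other clusterings, filters, measures and thresholds, and no sign of a called ratio was reversed. Of 77 recomputed counts, 73 were within 1.5 times the reported count. With 0.1 added to each mean in place of 0.01, the reporter library gave 3 genes for CTFs-like over CBFs-like cells (0 higher, 3 lower, against 7) and 3 for CBFs2-like over CBFs1-like cells (against 6). In the former comparison Sema3d, Slit2, Ntn4 and Sema3f had means below 0.1 in both classes. With 0.1 added, the ratio of such means cannot reach 2-fold. The cause was not tested further. Past 3-fold, CBFs2-like over CBFs1-like cells of the reporter library also gave 3. Past 1.5-fold, smooth muscle-like over fibroblasts gave 7 against 4. Of 568 recomputed log2 ratios, 53 moved by more than the counting error of their shares. The class with the highest mean changed in 4 of 78 cases. With 15 principal components the lymphatic endothelial-like class had 0 cells, so the highest class of Sema3d and Ntn1 could not be recomputed. With log-normalized values clustered, and without cells above 10% mitochondrial counts, Robo1 was highest in smooth muscle-like cells. With cells thinned, Sema3a was highest in lymphatic endothelial-like and Slit2 in CBFs2-like cells. The depth sequenced is unknown, so a low mean cannot be told from a missed gene.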

Other observations

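The other guidance genes with the highest class means in the wild-type library were mostly not fibroblast genes. Sema3b, a class 3 semaphorin outside the chosen list, averaged 4.82 in glia-like cells and 0.312 in enterocyte-like cells, its next class. Dag1, which encodes the laminin and Slit receptor dystroglycan, averaged 3.91 in glia-like and 1.25 in CBFs2-like cells. Flrt3 averaged 2.35 (goblet-like) and 1.91 (enterocyte-like), against 0.0147 (CTFs-like). Sema6a averaged 2.13 in lymphatic and 0.728 in blood endothelial-like cells. Sema4g (2.08 in the epithelial cells without a narrower name), Sdc1 (2.05) and Plxnb2 (1.26 in enterocyte-like cells, as for Sdc1) were highest in epithelium. Sema5a averaged 1.83 in enteroendocrine-like and 1.11 in smooth muscle-like cells.

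A cluster of 20 cells led by Pcp4 and Hand1 matched no marker list. Sema3c averaged 3.25 there and was above 0 in 20 of 20 cells, Ntn1 averaged 1.85 and Sema3a 0.850. Sema3d and Sema3f were at 0 in it, which allows a share of up to 15%. In 99 cells with both pericyte and endothelial markers, Ntn4 averaged 0.838 and Sema3f 0.778.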
